A study of Mus musculus with 6 samples.

Results

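The genes described here are the mouse Toll-like receptor genes Tlr1, Tlr2, Tlr3, Tlr4, Tlr6, Tlr7, Tlr8, Tlr9 and Tlr13 and the co-receptor gene Cd14, 10 of the 24379 genes in the deposited count table, taken by gene symbol. Gene expression had been measured by RNA sequencing in 6 libraries of RAW264.7 cells, a macrophage-like line from a mouse tumour that Abelson leukaemia virus induced. The 3 HFCS-labelled libraries came, by their labels, from cells given high-fructose corn syrup, a syrup that holds fructose and glucose as free sugars, and the 3 control-labelled ones from cells the labels call WT, all with a time of 18 h. The dose is 140 mM in the titles and 170 mM in the source names, and the sources used here do not say what the control cells received. The labels mention plates of wells but not whether replicates were grown separately, so each p-value rests on the variation among these libraries and that variation may be technical.

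Toll-like receptors bind molecules of microbes and of damaged cells and start the signals that switch on inflammatory genes. Those at the cell surface (Tlr1, Tlr2, Tlr4 and Tlr6) bind lipids and proteins of microbial envelopes. Those in endosomes (Tlr3, Tlr7, Tlr8, Tlr9 and Tlr13) bind nucleic acids and need the chaperone UNC93B1 to reach that compartment. CD14 is held in the membrane by a lipid anchor, has no signalling domain of its own, and hands lipopolysaccharide to the complex of TLR4 and MD-2.

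Cd14 and all 4 surface receptors had higher counts in HFCS-labelled libraries, by 1.28-fold for Tlr6 to 3.71-fold for Cd14. Of the 5 endosomal receptor genes only Tlr13 rose, by 1.46-fold, while Tlr7 and Tlr9 did not pass the test and Tlr3 and Tlr8 were too low to test. Whether the classes differ in fold change was not tested, and the ratio of their sums given further on is a description. A gene was taken as changed at a p under 0.05 by the quasi-likelihood test of edgeR, adjusted over all tested genes after Benjamini and Hochberg. By that rule 6 of the 8 tested members rose and 0 fell, where 44.9% of all 14360 tested genes were called, 22.4% as higher and 22.5% as lower. In all 6 the groups did not overlap, as in 27.4% of all tested genes with HFCS-labelled libraries on top. The count of 0 lower members also held at an unadjusted p under 0.05 and with DESeq2 and limma-voom, though Tlr7 was called lower when control replicate 1 was left out. The median log2 fold change was 0.51 over the 8 tested members and -0.00 over all tested genes.

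Total counts per library were 13108485 to 15340255. The second principal component, with 11.8% of the variance, placed control replicate 1 at 29.3 and HFCS replicate 3 at -18.9, and HFCS replicate 3 had the highest level of its group for all 8 tested members. Each fold change is therefore also given without both of these libraries where that moves it much. Of 10 macrophage markers 9 could be tested, of which 7 rose and 2 fell, where 22.4% of all tested genes rose and 22.5% fell, and the summed level of the 10 was 2542 to 2556 CPM (counts relative to the scaled size of the library) in HFCS-labelled libraries, against 2162 to 2224 CPM in control-labelled ones. The summed markers of T cells, B cells, neutrophils, fibroblasts and epithelial cells reached at most 1.93 CPM in any HFCS-labelled and 1.06 CPM in any control-labelled library. Those of dendritic cells reached 4.09 CPM in HFCS-labelled libraries, against 5.06 CPM in control-labelled ones. In bulk samples, fewer cells with a message and less of it per cell cannot be told apart. Akr1b3, the aldose reductase gene that hypertonic stress is known to induce, had 195 to 217 CPM where the label was HFCS and 7134 to 7864 CPM where it was control. Whether the labels are exchanged was not tested, so groups are called by label and every direction given here holds only as far as the labels do.

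Cd14 (ENSMUSG00000051439, mm10 chromosome 18, 36725074 to 36726736, minus strand) was the most abundant of the genes and had the largest rise. It had 401, 376 and 451 CPM in the HFCS-labelled libraries, against 113, 108 and 109.5 CPM in the control-labelled ones. The lowest HFCS-labelled library lay far above the highest control-labelled one. The log2 fold change was 1.89 ± 0.08 (SE; n = 3 each; edgeR adjusted p = 8.2e-08), and it stayed between 1.83 and 1.97 over the 15 other settings tried.

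**Figure D1:**
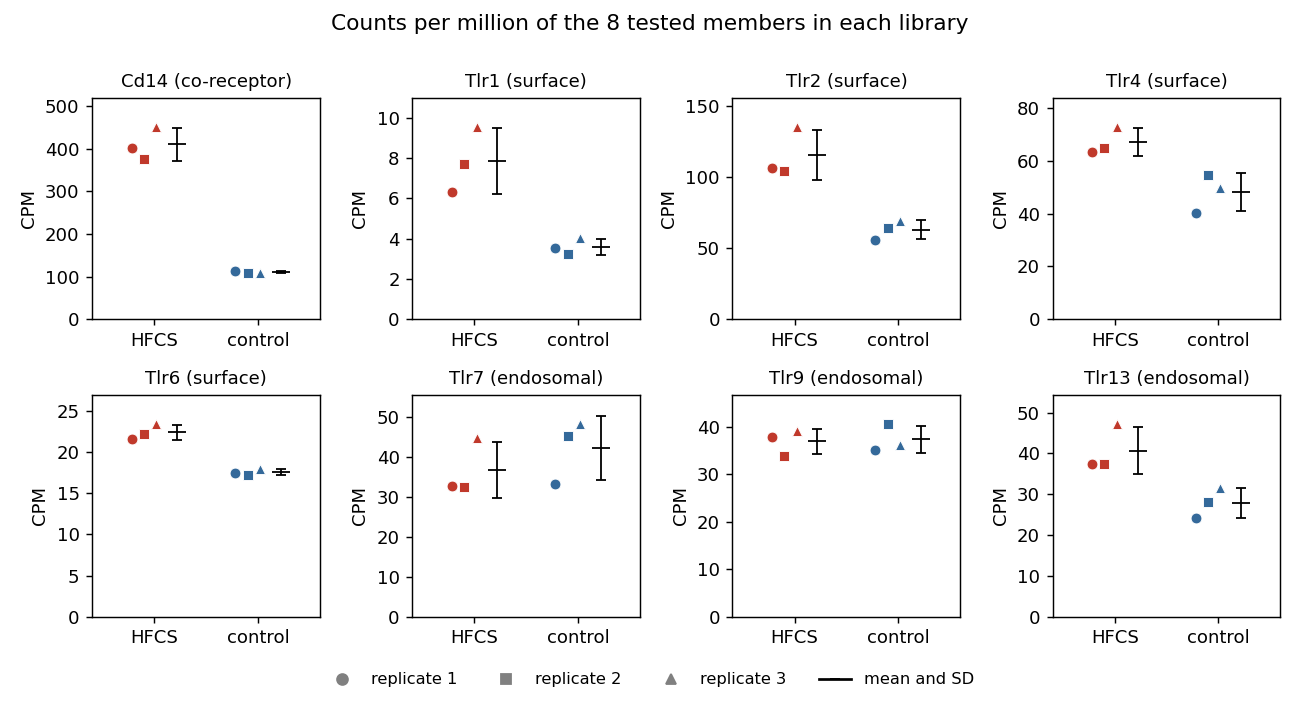
CPM of the 8 members that could be tested, in each library, with HFCS-labelled libraries left and control-labelled libraries right; symbols mark replicates and the black bars give the mean and SD of each group. Cd14 at 376 to 451 CPM stands clear of its control-labelled libraries at 108 to 113 CPM, while the Tlr7 and Tlr9 groups overlap.

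Tlr2 pairs with TLR1 or TLR6 at the protein level to bind bacterial lipopeptides, triacylated ones with TLR1 and diacylated ones with TLR6. Tlr2 (ENSMUSG00000027995, chromosome 3, 83836272 to 83841767, minus strand) had 106, 105 and 136 CPM in HFCS-labelled libraries, against 56.0, 64.2 and 69.5 CPM in control-labelled libraries. The groups did not overlap, and the log2 fold change was 0.87 ± 0.11 (edgeR adjusted p = 1.6e-04). Without control replicate 1 and HFCS replicate 3 the log2 fold change of Tlr2 was 0.66 (edgeR adjusted p = 1.4e-07). Its partner Tlr1 (ENSMUSG00000044827, chromosome 5, 64924679 to 64933563, minus strand) was far less abundant, with 6.31, 7.72 and 9.56 CPM in HFCS-labelled libraries, against 3.54, 3.23 and 4.02 CPM in control-labelled libraries. Tlr1 rose by 1.13 ± 0.20 on the log2 scale (edgeR adjusted p = 0.0011), again with no overlap. Its rise was 0.96 (edgeR adjusted p = 0.0022) without control replicate 1 and HFCS replicate 3.

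The other partner, Tlr6 (ENSMUSG00000051498, chromosome 5, 64952031 to 64960097, minus strand), rose least. It had 21.7, 22.2 and 23.5 CPM in the HFCS-labelled libraries, against 17.5, 17.2 and 18.0 CPM in the control-labelled ones. The groups stood apart with little spread within each, and the log2 fold change was 0.35 ± 0.10 (edgeR adjusted p = 0.015). Leaving out each library in turn kept the call, with an adjusted p of up to 0.0495 without HFCS replicate 3. Tlr1 and Tlr6 are neighbours on chromosome 5, 18467 bases apart with 0 listed genes between them, and they are close paralogs. Of the 50-base stretches in the GENCODE M21 transcripts of Tlr6, 12.3% also occur in transcripts of another gene, Tlr1 among them, and of those of Tlr1 15.4%. The sources used here do not say how reads that match both were counted, so the levels of these 2 genes are uncertain. The percentages do not give the size of that uncertainty. It could be larger for Tlr1, counted 152 times in control-labelled libraries, where Tlr6 was counted 742 times.

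Tlr4, the lipopolysaccharide receptor that CD14 serves, also rose. Tlr4 (ENSMUSG00000039005, chromosome 4, 66827584 to 66930284, plus strand) had 63.1, 64.9 and 72.9 CPM in HFCS-labelled libraries, against 40.2, 54.5 and 49.6 CPM in control-labelled libraries. The groups did not overlap, with control replicate 1 lowest of all. The log2 fold change was 0.48 ± 0.11 (edgeR adjusted p = 0.0053), and 0.31 (adjusted p = 0.0025) without control replicate 1 and HFCS replicate 3. The ratio of Cd14 to Tlr4 per kilobase was 20.4, 18.6 and 19.9 in HFCS-labelled libraries, against 9.05, 6.38 and 7.09 in control-labelled libraries. Such a ratio within a library does not depend on how library sizes are scaled.

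**Figure D2:**
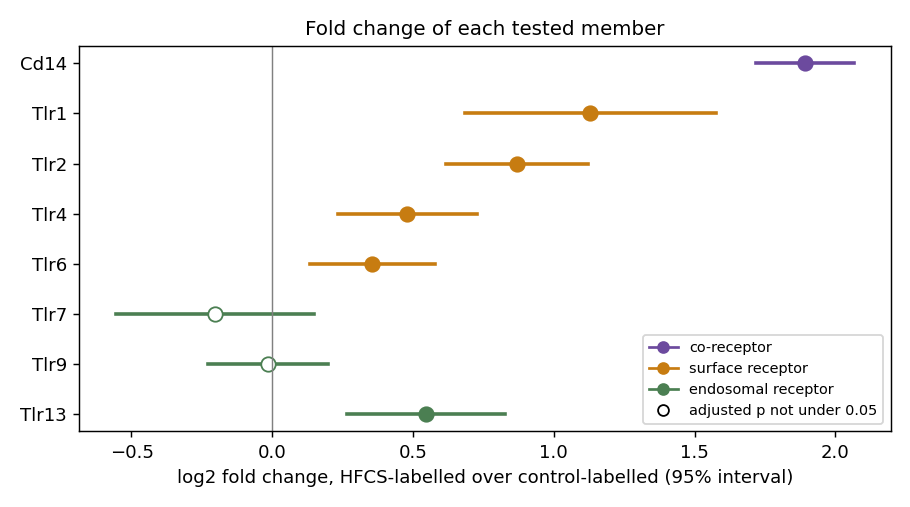
Log2 fold change of HFCS-labelled over control-labelled libraries for the 8 tested members, with 95% intervals from edgeR (n = 3 each); filled points passed an adjusted p of 0.05. Cd14 at 1.89 and the 4 surface receptors at 0.35 to 1.13 lie right of 0, as does Tlr13 at 0.55, while the intervals of Tlr7 and Tlr9 span 0.

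Among the endosomal receptors Tlr13, which in mice binds bacterial ribosomal RNA, was the member that changed. Tlr13 (ENSMUSG00000033777, chromosome X, 106143204 to 106160493, plus strand) had 37.4, 37.3 and 47.3 CPM in HFCS-labelled libraries, against 24.2, 28.0 and 31.5 CPM in control-labelled libraries. No HFCS-labelled library fell among the control-labelled ones. The log2 fold change was 0.55 ± 0.13 (edgeR adjusted p = 0.0054), and 0.33 (adjusted p = 0.0070) without control replicate 1 and HFCS replicate 3.

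Tlr7, the receptor for single-stranded RNA, did not pass the test. Tlr7 (ENSMUSG00000044583, chromosome X, 167304929 to 167330558, minus strand) had 32.8, 32.5 and 44.9 CPM in HFCS-labelled libraries, against 33.3, 45.4 and 48.4 CPM in control-labelled libraries. The groups overlapped through HFCS replicate 3, the highest of its group, and control replicate 1, the lowest of its own. The log2 fold change was -0.20 with a 95% interval of -0.55 to 0.15 (edgeR adjusted p = 0.33). Without control replicate 1 it was -0.35 (edgeR adjusted p = 0.028), and without that library and HFCS replicate 3 it was -0.52 (edgeR adjusted p = 7.7e-05). The adjusted p over all 15 settings ran up to 0.71. Leaving out both was chosen after seeing the data. The groups overlapped through these libraries, so leaving out control replicate 1, alone or with HFCS replicate 3, parts them of itself. Neither fit is therefore support for a fall of Tlr7. The mitochondrial share of counts followed the same libraries, at 1.80, 1.77 and 2.12% in HFCS-labelled and 1.97, 2.88 and 2.75% in control-labelled libraries, and its part in the result was not tested.

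Tlr9, the receptor for unmethylated CpG DNA (ENSMUSG00000045322, chromosome 9, 106222598 to 106226883, plus strand), had 37.8, 33.9 and 39.1 CPM in HFCS-labelled libraries, against 35.2, 40.7 and 36.3 CPM in control-labelled libraries. The ranges lay over each other. The log2 fold change was -0.02 with a 95% interval of -0.23 to 0.20 (edgeR adjusted p = 0.91), and its sign changed with the setting, from -0.10 to 0.06, so no direction is given.

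Tlr3 and Tlr8 stayed close to the limit of counting. Tlr3, the receptor for double-stranded RNA (ENSMUSG00000031639, chromosome 8, 45395665 to 45411080, minus strand), was counted 6, 10 and 21 times in HFCS-labelled libraries, against 2, 10 and 3 times in control-labelled libraries. Scaled to library size this is a ratio of 2.34 with an exact 95% interval of 1.25 to 4.58 that covers counting error only, and with no filter on low counts the edgeR adjusted p was 0.18. Tlr8 (ENSMUSG00000040522, chromosome X, 167242696 to 167264329, minus strand) was counted 0, 2 and 0 times in HFCS-labelled libraries and 5, 0 and 6 times in control-labelled libraries, a ratio of 0.172 with an interval of 0.0186 to 0.789 and an adjusted p of 0.25 without the filter. A count of 0 allows up to 3 counts, or 0.196 to 0.229 CPM in these libraries. Tlr8 lies beside Tlr7 on chromosome X, 40599 bases away with 0 listed genes between them, and per kilobase it had under 0.12 RPKM in every library, where Tlr7 had at least 7.96 RPKM. Of the other mouse receptors, Tlr5 was counted 0 times in HFCS-labelled and 3 times in control-labelled libraries, and Tlr11 and Tlr12 were not found by symbol among the listed genes.

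Levels of different genes were compared as RPKM, the CPM divided by the kilobases of annotated exon. The annotation that gave these lengths holds other coordinates for Cd14 than those listed here. The RPKM of Cd14 and its ratio to Tlr4 are less certain for that reason. In HFCS-labelled libraries the order was Cd14 (236 ± 22.2 RPKM, mean ± SD), Tlr2 (38.3 ± 5.81), Tlr4 (12.1 ± 0.933), Tlr9 (10.6 ± 0.774), Tlr13 (9.45 ± 1.33), Tlr7 (9.01 ± 1.74), Tlr6 (6.03 ± 0.247) and Tlr1 (2.35 ± 0.486 RPKM), with Tlr3 and Tlr8 under 0.3 RPKM in every library. Tlr9, Tlr13 and Tlr7 overlapped their neighbours in that order, while every other adjacent pair stood apart. In control-labelled libraries the order was Cd14 (63.7 ± 1.52 RPKM), Tlr2 (21.0 ± 2.27), Tlr9 (10.7 ± 0.835), Tlr7 (10.4 ± 1.96), Tlr4 (8.65 ± 1.31), Tlr13 (6.48 ± 0.845), Tlr6 (4.72 ± 0.103) and Tlr1 (1.07 RPKM, between 0.965 and 1.20). There Tlr9, Tlr7, Tlr4 and Tlr13 overlapped from neighbour to neighbour, as did Tlr8 and Tlr3 at the bottom.

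**Figure D3:**
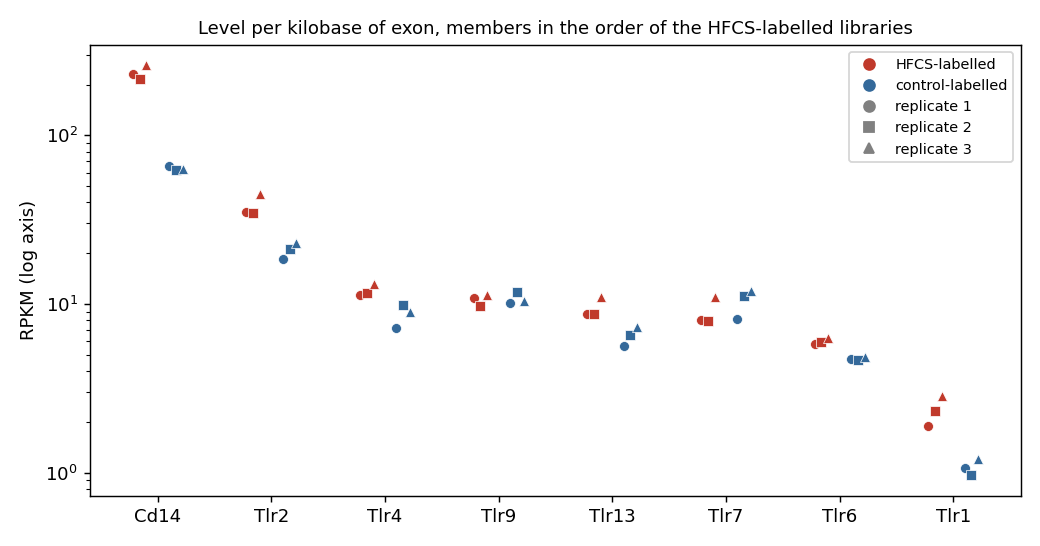
RPKM of the 8 tested members in each library on a log axis, in the order of the HFCS-labelled libraries; red points are HFCS-labelled, blue points control-labelled, and symbols mark replicates. Cd14 and Tlr2 lead in both groups, and Tlr4 stands above the endosomal receptors in the HFCS-labelled libraries alone, at 11.4 to 13.1 RPKM.

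The ratio of surface to endosomal receptor levels was higher in every HFCS-labelled library than in any control-labelled one. The summed RPKM of the 4 surface receptors was 54.4, 54.6 and 67.3 in HFCS-labelled libraries, against 31.5, 36.7 and 38.0 in control-labelled libraries. That of the 5 endosomal receptors was 27.7, 26.6 and 33.5 in HFCS-labelled libraries, against 24.0, 29.5 and 29.8 in control-labelled libraries. The surface sums did not overlap between the groups and the endosomal sums did. The ratio of the 2 sums was 1.96, 2.06 and 2.01 in HFCS-labelled and 1.31, 1.25 and 1.28 in control-labelled libraries, a difference of 0.65 on the log2 scale. HFCS replicate 3 and control replicate 1, which stood apart in level, had ratios like those of their own groups. The ratio is a description with no test, since it is a score over chosen genes.

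**Figure D4:**
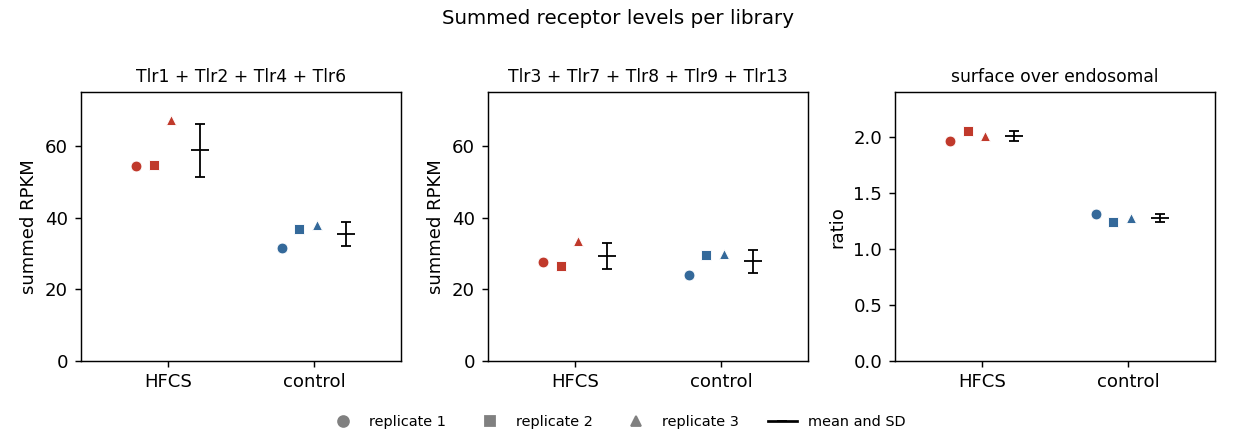
Summed RPKM of the surface receptors, of the endosomal receptors, and the ratio of the sums in each library, HFCS-labelled left and control-labelled right; symbols mark replicates and black bars the mean and SD. The ratio is 1.96 to 2.06 in HFCS-labelled and 1.25 to 1.31 in control-labelled libraries, while the endosomal sums overlap.

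Tlr2 held 43.0, 42.7 and 44.7% of the summed RPKM of the 9 receptors in HFCS-labelled libraries, against 33.4, 32.2 and 34.0% in control-labelled libraries. Without the most abundant receptor of each class, the log2 difference of the ratio was 0.37. Tlr7 held 9.80, 9.81 and 10.9% of the receptor total in HFCS-labelled libraries, against 14.7, 16.8 and 17.5% in control-labelled libraries, and these shares did not overlap although the levels of Tlr7 did. The total includes the surface receptors, whose sums were higher in HFCS-labelled libraries, so a lower share is no sign of less Tlr7. No background for such shares was computed.

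Ratios between members of a class were also compared within each library. The ratio of Tlr13 to Tlr7 per kilobase was 1.08, 1.09 and 0.998 in HFCS-labelled libraries, against 0.690, 0.585 and 0.617 in control-labelled libraries. The ratio of Tlr13 to Tlr9 was 0.800, 0.889 and 0.977 in HFCS-labelled and 0.556, 0.557 and 0.701 in control-labelled libraries. Both ratios parted the groups, while Tlr7 to Tlr9 overlapped, at 0.740, 0.816 and 0.979 in HFCS-labelled and 0.807, 0.952 and 1.14 in control-labelled libraries. Among surface receptors, Tlr1 to Tlr6 was 0.324, 0.387 and 0.453 in HFCS-labelled libraries, against 0.225, 0.209 and 0.249 in control-labelled libraries, and Tlr2 to Tlr4 was 3.11, 2.97 and 3.44 in HFCS-labelled and 2.57, 2.17 and 2.59 in control-labelled libraries. Of the 6 ratios compared, Cd14 to Tlr4 included, 5 did not overlap between the groups, each with a two-sided exact permutation p of 0.1 (0.12 after Benjamini-Hochberg adjustment over the 6), and Tlr7 to Tlr9 had a p of 0.5. With 3 libraries against 3, a p of 0.1 is the smallest such a test can give. Of single tested genes, 54.5% did not overlap between the groups in either direction, and no such share was computed over pairs of genes. The count of ratios that did not overlap is therefore no result about the receptors.

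The promoters of 3 members that rose and of Tlr9, which did not pass the test, are shown for the 250 bases before the RefSeq start of the gene (build GRCm38.p6), since NF-kB and PU.1, a factor of the macrophage lineage, are known regulators of receptor genes. Promoter sequences were used for 7 of the 10 members, with none for Cd14, Tlr4 or Tlr7, and for Tlr1 the first of its 2 starts is shown. Capitals mark matches, on either strand, to the NF-kB consensus, to the letters GGAAGT and GAGGAA, which hold the core that PU.1 and other ETS factors bind, to TGANTCA, the AP-1 element, and to the IRF element, GAAA repeated after a pair of any bases, which interferon regulatory factors bind. The RefSeq starts of Tlr2, Tlr1 and Tlr13 lie inside the genes as the count table lists them, so part of each window overlaps the listed gene, and that of Tlr9 is at the listed start. Of all RefSeq promoters of this length, 3.9% hold the NF-kB consensus, 19.7% GGAAGT, 23.3% GAGGAA, 6.75% TGANTCA and 2.98% the IRF element.
Tlr2 (chr3:83841609-83841858, minus strand): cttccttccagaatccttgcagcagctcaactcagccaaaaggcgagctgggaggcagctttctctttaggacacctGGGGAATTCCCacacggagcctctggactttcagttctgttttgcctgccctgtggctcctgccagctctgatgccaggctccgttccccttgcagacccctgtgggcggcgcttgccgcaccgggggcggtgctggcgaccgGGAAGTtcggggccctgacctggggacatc
Tlr1 (chr5:64933559-64933808, minus strand): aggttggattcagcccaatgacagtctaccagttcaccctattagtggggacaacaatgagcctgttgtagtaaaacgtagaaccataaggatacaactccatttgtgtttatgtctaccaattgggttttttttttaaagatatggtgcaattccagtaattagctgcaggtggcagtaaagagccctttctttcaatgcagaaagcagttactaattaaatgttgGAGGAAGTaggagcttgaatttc
Tlr13 (chrX:106143025-106143274, plus strand): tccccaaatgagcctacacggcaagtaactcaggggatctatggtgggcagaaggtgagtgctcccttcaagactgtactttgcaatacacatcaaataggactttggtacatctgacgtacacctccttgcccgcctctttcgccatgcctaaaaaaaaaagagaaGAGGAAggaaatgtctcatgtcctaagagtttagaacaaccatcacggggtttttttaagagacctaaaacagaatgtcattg
Tlr9 (chr9:106222348-106222597, plus strand): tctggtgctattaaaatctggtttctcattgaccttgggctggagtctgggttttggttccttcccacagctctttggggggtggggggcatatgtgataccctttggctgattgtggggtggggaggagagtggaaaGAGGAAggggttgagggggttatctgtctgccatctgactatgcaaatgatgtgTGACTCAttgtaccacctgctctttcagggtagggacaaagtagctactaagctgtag

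In the Tlr2 window the NF-kB consensus matched in overlapping frames between positions -173 and -163 from the start, and GGAAGT began at -30. In the Tlr1 window shown, GAGGAA began at -23 and overlapped GGAAGT, which began at -21, and the window before its second start held no match. GAGGAA began at -83 in Tlr13 and at -112 in Tlr9, where TGANTCA began at -58. Of the members not printed, Tlr3 held the NF-kB consensus, Tlr6 GGAAGT and overlapping IRF elements before 1 of its 2 starts, and Tlr8 GAGGAA. A match is a string of letters and no measure of binding. Spi1, which codes for PU.1, had 131 ± 5.76 CPM in HFCS-labelled libraries, against 89.0 ± 10.2 CPM in control-labelled ones (log2 fold change 0.56, edgeR adjusted p = 4.9e-04). Whether PU.1 has a part in the level of any member was not tested.

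Over 6 lists of genes that work with the receptors 59 could be tested, of which 15 rose, 16 fell and 28 did not pass, with a median log2 fold change of -0.01. These counts are near the background, since 22.4% of all tested genes were called higher and 22.5% lower, so they are no result about the lists and the genes below are given for their own values. Among TIR adaptors, which link receptors to kinases, Ticam2 (1.22 ± 0.17, edgeR adjusted p = 2.4e-04) and Tirap (0.71 ± 0.11, adjusted p = 5.8e-04) rose and 4 of the 6 did not pass. TICAM2 bridges TLR4 to TICAM1, and TIRAP bridges TLR2 and TLR4 to MYD88. Ticam2 had 14.4 ± 0.151 CPM in HFCS-labelled libraries, against 6.21 ± 1.55 CPM in control-labelled ones, and Tirap 42.3 ± 1.08 CPM in HFCS-labelled libraries, against 26.0 ± 4.02 CPM in control-labelled ones. The adaptors they bridge to did not pass, Myd88 with 40.1 ± 4.11 CPM in HFCS-labelled libraries, against 38.6 ± 2.33 CPM in control-labelled ones (adjusted p = 0.69). Ticam1, which also serves TLR3, had 15.8 ± 1.0 CPM in HFCS-labelled libraries, against 15.6 ± 1.26 CPM in control-labelled ones (adjusted p = 0.92). Myd88, Ticam1, Spi1, Itgb2, Ly96, Unc93b1, Sigirr and Tnfaip3 were chosen for mention after their values were seen.

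Of 8 tested surface accessory proteins, 2 rose and 3 fell, where 44.9% of all tested genes were called (median log2 fold change of the list -0.13). Cd36, a scavenger receptor that aids TLR2 with TLR6, had 44.1 ± 2.53 CPM in HFCS-labelled libraries, against 21.3 ± 2.74 CPM in control-labelled ones (log2 fold change 1.05, edgeR adjusted p = 3.7e-05), and the integrin gene Itgam rose by 0.46. The integrin partner Itgb2 (-0.28), the lipoprotein receptor gene Scarb1 (-0.55) and Cd300lb (-0.49) fell. Ly96, which codes for MD-2, had 8.15 ± 0.885 CPM in HFCS-labelled libraries, against 7.58 ± 0.359 CPM in control-labelled ones (adjusted p = 0.59), so within the lipopolysaccharide receptor Cd14 and Tlr4 passed the test and Ly96 did not.

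Of 16 tested chaperones and trafficking proteins, 3 rose, 3 fell and 10 did not pass, a smaller share called than the 44.9% of all tested genes (median 0.03). Unc93b1, the chaperone of endosomal receptors, had 252 to 279 CPM in HFCS-labelled libraries, against 265.2 to 307 CPM in control-labelled ones (edgeR adjusted p = 0.23). The folding chaperone Hsp90b1 fell by 0.52 on the log2 scale and its co-chaperone for these receptors, Cnpy3, rose by 0.66. Slc15a3 and Slc15a4 code for endolysosomal transporters of histidine and peptides, and Slc15a4 is known to be needed for TLR7 and TLR9 signalling. Slc15a3 rose to 113 ± 1.44 CPM in HFCS-labelled libraries, against 34.2 ± 2.97 CPM in control-labelled ones (1.72, adjusted p = 1.5e-07). Slc15a4 fell by 0.32 (adjusted p = 0.011), a call that was lost without HFCS replicate 1 and without control replicate 3. Rab7b, a small GTPase known to promote the degradation of TLR4 and TLR9 in lysosomes, fell to 68.7 ± 5.34 CPM in HFCS-labelled libraries, against 176 ± 7.77 CPM in control-labelled ones (-1.35, adjusted p = 6.4e-07).

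**Figure D5:**
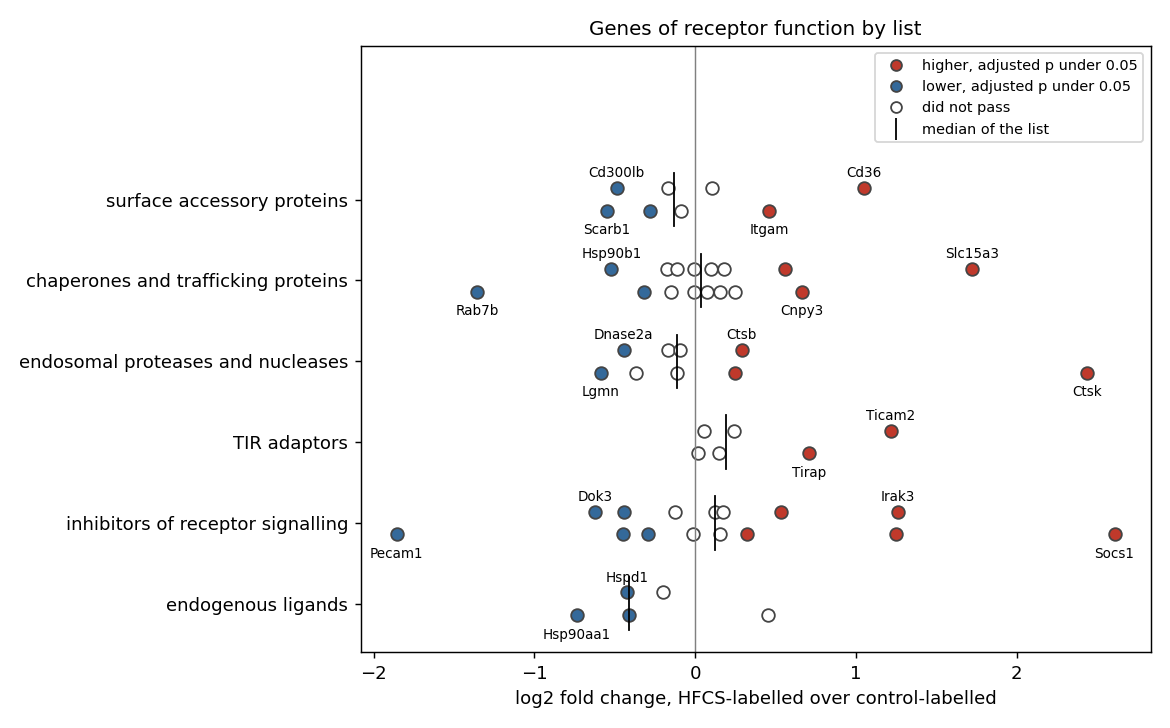
Log2 fold change of HFCS-labelled over control-labelled libraries for each tested gene of the 6 lists, filled red where higher and blue where lower at an adjusted p of 0.05, open where the test was not passed, with a bar at each list's median. Slc15a3 at 1.72 and Rab7b at -1.35 mark the ends of the trafficking list, and Ticam2 and Tirap are the filled points among the adaptors.

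Of 9 tested endosomal proteases and nucleases, which trim receptors or their nucleic acid ligands, 3 rose and 2 fell, near the 44.9% called among all tested genes (median -0.11). The asparagine endopeptidase gene Lgmn had 540.2 ± 12.9 CPM in HFCS-labelled libraries, against 811 ± 22.4 CPM in control-labelled ones (-0.59, edgeR adjusted p = 3.1e-05), and the acid DNase gene Dnase2a fell by 0.44. The cathepsin genes Ctsb (0.29) and Ctsk (2.44, at 1.83 ± 0.372 CPM in HFCS-labelled libraries, against 0.331 ± 0.0742 CPM in control-labelled ones) rose. The exonuclease gene Pld4 rose by 0.25, but the call was lost on leaving out any library other than control replicate 1.

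Of 15 tested inhibitors of receptor signalling, 5 rose, 5 fell and 5 did not pass, where 22.4% of all tested genes were called higher and 22.5% lower (median 0.12). Of the 5 that fell, Otud4 (-0.29) was not called without HFCS replicate 1 or without HFCS replicate 2. Irak3, a kinase-like protein that restrains the receptors' kinases, had 135 ± 9.27 CPM in HFCS-labelled libraries, against 56.5 ± 8.07 CPM in control-labelled ones (1.26, edgeR adjusted p = 7.7e-06). Socs1, a cytokine-inducible suppressor, rose by 2.61 at a low level, with 2.24 ± 1.11 CPM in HFCS-labelled libraries, against 0.357 ± 0.193 CPM in control-labelled ones (adjusted p = 0.0024). Pecam1 (-1.86) fell, also at a low level. It had 0.785 ± 0.116 CPM in HFCS-labelled libraries, against 2.87 ± 0.777 CPM in control-labelled ones. Dok3 (-0.62) and Sigirr (-0.44), a receptor that damps TIR signals, fell too. Tnfaip3 had 49.1 ± 4.71 CPM in HFCS-labelled libraries, against 49.6 ± 5.68 CPM in control-labelled ones (edgeR adjusted p = 0.93). Of 5 tested endogenous ligands 3 fell and 2 did not pass, where 22.5% of all tested genes were called lower (median -0.41). Those that fell were Hsp90aa1 (-0.74), Hspd1 (-0.42) and Hmgb1 (-0.41), and Hmgb1 did not pass without HFCS replicate 2 or without control replicate 3.

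The genes most like Cd14 in pattern, by Pearson's r of log2 CPM over the 6 libraries, were Gbp8, Svil and Tmem159, each with an r of 0.999. With groups so far apart, 1286 tested genes had an r above 0.95 with Cd14. Gbp8 was low, with 3.77 ± 0.758 CPM in HFCS-labelled libraries and 0 CPM in control-labelled ones. For Tlr7, the member with the lowest fold change, the genes most alike were Rnaset2b (0.997), mt-Nd1 (0.988) and Nbn (0.987), and 61 genes had an r above 0.95. Rnaset2b was low as well, with 0.711 ± 0.207 CPM in HFCS-labelled libraries, against 0.927 ± 0.267 CPM in control-labelled ones. The mitochondrial gene mt-Nd1 had 659 ± 117 CPM in HFCS-labelled libraries, against 742 ± 137 CPM in control-labelled ones (edgeR adjusted p = 0.36).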

How the data were processed

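RNA of RAW264.7 cells was extracted with Trizol and made into Illumina libraries, per the labels' protocols. The deposited table gives whole-number read counts for each gene and library, with no normalisation. The submitters' processing notes name CASAVA, HISAT2 2.0.5, featureCounts 1.5.0-p3 and build mm10, and no settings. The sources used here give no annotation release, strand setting or treatment of reads that match several genes. None of the 10 members overlaps another listed gene.

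Symbols were matched for 24344 of 24379 identifiers through GENCODE M21, which also gave exon lengths. The filterByExpr function (minimum count 10) left 14360 genes, which were scaled by TMM. Testing used edgeR 4.0.16 in R 4.3.3 (glmQLFit, then glmQLFTest) with group as the only term. It was also run on simulated data in which far fewer genes changed than were called here. That run therefore does not show how the test does with so many genes changed. CPM and RPKM were computed here from the TMM-scaled counts. Intervals of counts cover counting error only. The common biological coefficient of variation was 0.0984. Scaling by library size alone made 60.2% of all calls higher in place of 50.0%.

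The members and lists were chosen with earlier results of these data known. Named were all members, of each list up to 2 genes past the threshold with the largest and 2 with the smallest fold change, 4 genes that lost their call with a setting (Slc15a4, Pld4, Otud4 and Hmgb1), and the 3 genes most like the members with the highest and lowest fold change. Alternatives were scaling by upper quartile, by median of ratios or by total alone, limma-voom (limma 3.58.1), DESeq2 1.42.0, a stricter and no filter on low counts, a replicate block, each library left out in turn, and, chosen after seeing the data, leaving out HFCS replicate 3 and control replicate 1 together. Replicates differed beyond sampling noise in every pair (chi-square over its degrees of freedom 2.68 to 18.5).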

Additional observations from a re-analysis of the deposited data

How the results depend on the processing

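In all 15 other settings, 6 members were called higher and 1 or 0 lower, and 14 to 19 genes of the 6 lists were higher and 14 to 19 lower. Of the list genes that did not pass, Cd180, Cnpy4, Rab7, Rab11fip2, Pikfyve, Bloc1s3, Pik3ap1 and Tollip each passed in 1 to 3 of these settings. The number of all genes called ran from 2626 to 4025 higher and from 2489 to 3782 lower. Tlr7 was the member called lower, without control replicate 1 (log2 fold change -0.35, 1 member lower in place of 0) and without that library and HFCS replicate 3 (-0.52, again 1 member lower). The Tlr7 groups overlapped through these libraries, so leaving them out parts the groups of itself. Why these libraries differ from the others was not tested. Over the settings that leave out 1 library, the log2 fold change of Tlr7 ran from -0.361 to -0.0936 and the number of members called lower from 0 to 1. The surface to endosomal ratio was 0.65 higher in HFCS-labelled libraries on the log2 scale. That difference was 0.59 on counts not divided by length. It was 0.60 as a mean of log2 values of the tested receptors alone, which left out Tlr3 and Tlr8. Without Tlr2 and Tlr9, the most abundant of each class, it was 0.37. Each of these lay further from 0.65 than the spread between replicates. With 1 library left out the difference was 0.63 to 0.67. With the replicate number as a block, 3619 genes were higher and 3533 lower, against 3223 and 3224 without it, and 6 members higher. Whether the numbers pair the samples was not tested, and these weak correlations cannot decide it. Same-numbered libraries deviated with correlations of 0.17, -0.06 and 0.19. HFCS replicates 1 and 3 correlated best with the control replicate of their own number, and HFCS replicate 2 with control replicate 1 (0.16). Depth limits Tlr3 and Tlr8, with 2 to 37 counts per group.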
